A study of Mus musculus with 2 samples.

Results

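The haemoglobin chain genes Hba-x, Hba-a1 and Hba-a2 (alpha type) and Hbb-y, Hbb-bh1, Hbb-bs and Hbb-bt (beta type) were followed in single-cell RNA profiles of mouse hearts at stage E12.5, the middle of gestation. All 7 members were matched by symbol among the 31053 genes of the deposited tables. The mutant heart library carried the Tbx18-Cre driver, which recombines in the epicardium, floxed Prmt1 on both chromosomes and a YFP reporter allele. The control library carried Tbx18-Cre and the YFP allele without floxed Prmt1, so driver and reporter were shared by both. The series title calls the Prmt1 deletion epicardial-specific. Blood cells are outside that layer. With a single library for each genotype, no difference between them could be tested against replicates, and every interval below covers counting error only. A red barcode is a cell barcode with at least 1000 unique molecular identifiers (UMIs, each standing for 1 captured RNA molecule) and at least 50% of them from the 7 genes, with no minimum number of genes. The mutant had 2114 red barcodes among 6796 barcodes with at least 1000 UMIs, and the control had 1831 among 5860.

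A haemoglobin molecule pairs alpha-type with beta-type chains. In the mouse embryo the first red cells, called primitive, come from the yolk sac, enter the blood while still nucleated and carry the embryonic chains zeta (Hba-x), epsilon-y (Hbb-y) and beta-H1 (Hbb-bh1) beside adult alpha chains. Primitive cells are known to exchange beta-H1 for epsilon-y and zeta for adult alpha as they mature, and definitive red cells, made later in the yolk sac and liver, carry the adult chains alpha (Hba-a1, Hba-a2) and beta (Hbb-bs, Hbb-bt). Below, the embryonic share of beta globin is the share of Hbb-y plus Hbb-bh1 in all beta-type UMIs, the Hba-x share is its share in all alpha-type UMIs, and adult alpha and adult beta are the paired genes Hba-a1 with Hba-a2 and Hbb-bs with Hbb-bt.

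On GRCm38 the alpha-type members lie in a row on the plus strand of chromosome 11, with Hba-x at 32276400 to 32278116, Hba-a1 at 32283511 to 32284465 and Hba-a2 at 32296489 to 32297298. The beta-type members lie on the minus strand of chromosome 7 in the order of transcription Hbb-y (103851749 to 103853216), Hbb-bh1 (103841637 to 103843164), Hbb-bs (103826534 to 103828096) and Hbb-bt (103812524 to 103813996). In both clusters the embryonic genes come first along the direction of transcription. The promoters are shown because the results turn on the balance of embryonic against adult genes within a cluster and of the paired adult genes with each other. RefSeq promoters of build GRCm38.p6 were given for 6 members, and the 150 bases up to the annotated start are printed 5′ to 3′ in lower case. The starts in RefSeq differ from those of the GENCODE spans above, so the windows of Hba-x, Hba-a1 and Hbb-bs lie inside these spans and the other windows overlap the edge of theirs. Capitals mark every match, on either strand, of CACCC (the core of the sites bound by the erythroid factor Klf1), of CCAAT (the core of a common promoter box), of GATAA (the core of the sites bound by Gata1), and of TATAA or the variant ATAAA (the box that places the start of transcription).

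Hba-x, chr11:32276450-32276599, strand +: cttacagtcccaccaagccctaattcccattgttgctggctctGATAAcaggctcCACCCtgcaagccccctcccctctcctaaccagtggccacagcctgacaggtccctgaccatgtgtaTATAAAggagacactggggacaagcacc

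Hba-a1, chr11:32283522-32283671, strand +: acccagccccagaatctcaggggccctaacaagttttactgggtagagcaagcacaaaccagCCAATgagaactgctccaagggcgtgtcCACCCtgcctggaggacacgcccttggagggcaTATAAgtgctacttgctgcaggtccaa

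Hba-a2, chr11:32296342-32296491, strand +: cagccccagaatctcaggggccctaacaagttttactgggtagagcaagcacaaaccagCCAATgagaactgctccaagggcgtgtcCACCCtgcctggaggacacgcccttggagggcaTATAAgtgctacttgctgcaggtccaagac

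Hbb-y, chr7:103853208-103853357, strand -: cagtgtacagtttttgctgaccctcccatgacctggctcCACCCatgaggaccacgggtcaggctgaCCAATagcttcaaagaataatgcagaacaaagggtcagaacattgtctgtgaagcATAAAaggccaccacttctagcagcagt

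Hbb-bs, chr7:103827929-103828078, strand -: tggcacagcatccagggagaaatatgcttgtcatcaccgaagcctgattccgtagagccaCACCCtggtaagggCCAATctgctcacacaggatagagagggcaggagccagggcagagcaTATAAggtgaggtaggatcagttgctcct

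Hbb-bt, chr7:103813924-103814073, strand -: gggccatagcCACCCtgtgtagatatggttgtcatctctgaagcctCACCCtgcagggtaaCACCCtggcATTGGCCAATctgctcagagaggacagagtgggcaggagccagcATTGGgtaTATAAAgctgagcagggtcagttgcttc

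CACCC was found in 6 of 6 windows, against 37.4% of 32851 windows of the same length over all promoters in the table. CCAAT was found in 5 of 6, against 24.5% of all, and was not matched in the window of Hba-x. Among these windows GATAA was found only in Hba-x, 107 to 103 bases before the start, against 13.3% of all windows. TATAA was found in 5 of 6 (14.2% of all) and ATAAA in 3 of 6 (24.1% of all), and the ATAAA match overlapped a TATAA match in Hba-x and Hbb-bt. These matches describe letters and not bound sites. Over their 300 given bases Hba-a1 and Hba-a2 matched at 297 of 297 positions after a shift of 3 bases. The transcripts of this pair also matched at 537 of 538 aligned bases, and the 1 difference lay 123 bases from the 3′ end of Hba-a1. Outside the aligned part lay 161 bases at the 5′ end of Hba-a1 and 16 at the 3′ end of Hba-a2. Of all windows of 90 bases, 58.9% of those of Hba-a1 and 77.2% of those of Hba-a2 occurred in the other transcript. Reads of Hba-a1 and Hba-a2 can therefore be told apart over only a part of each transcript, and the split of UMIs between them is uncertain. Hbb-bs and Hbb-bt matched at 582 of 630 aligned columns, with 39 of the 48 differences in the last 200 bases, so those genes can be separated better at their 3′ ends.

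The libraries held 48527471 UMIs in the mutant and 49323576 in the control, and the globin genes took 12.6% and 10.9% of them. The deposited mutant matrix holds only barcodes with at least 500 UMIs, while the control matrix is unfiltered. Red barcodes held 78.5% of the mutant's and 78.0% of the control's globin UMIs, with medians of 1686.5 UMIs and 238 genes in the mutant and 1515 UMIs and 180 genes in the control. A minimum of 500 genes would have removed 1876 (88.7%) of the mutant's and 1695 (92.6%) of the control's red barcodes. Just inside the limit, at 50 to 60% globin, were 516 mutant and 154 control barcodes, and just outside it, at 40 to 50%, were 203 and 58. The libraries shared 1 red barcode sequence. The listed erythroid markers other than globins (11 of 12 matched) were all detected in red barcodes and summed to 1921 counts per 1000000 UMIs (CPM) in mutant and 1322 CPM in control red barcodes. The largest sum of another cell class in red barcodes was that of the cardiomyocyte markers, at 220 and 240 CPM, against 42252 and 43156 CPM in gated cardiomyocytes. Prmt1 had 83 of 6640974 UMIs in mutant and 37 of 5386504 UMIs in control red barcodes. These counts do not separate deleted from intact transcripts and check nothing about the deletion.

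Hbb-y was the most abundant member in red barcodes of both libraries and Hbb-bh1 the least. Among embryonic genes, Hbb-y had 1876018 UMIs (282491 CPM) in mutant barcodes and 1897128 UMIs (352200 CPM) in control barcodes. Per barcode its median was 353 UMIs in the mutant and 427 in the control, with interquartile ranges of 263.25 to 479.75 and 356 to 541.5 UMIs. Hba-x had 800260 UMIs (120503 CPM) in mutant barcodes and 482900 UMIs (89650 CPM) in control barcodes, with medians of 223.5 and 146 UMIs per barcode. Hbb-bh1 had 83169 UMIs (12524 CPM) in mutant barcodes and 25292 UMIs (4695 CPM) in control barcodes, with medians of 18 and 6. The mutant was the higher library for Hba-x and Hbb-bh1 and the lower for Hbb-y.

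Among adult genes, Hba-a1 was second in order, with 170832 CPM in mutant and 183290 CPM in control barcodes, and had at least 59 UMIs in each mutant and 99 in each control red barcode. Hba-a2 had 66880 CPM in mutant and 82664 CPM in control barcodes. Hbb-bs had 39021 and 49758 CPM in the mutant and control. Hbb-bt had 30998 CPM in mutant and 17389 CPM in control barcodes. Hbb-bs thus led its pair by less in the mutant than in the control. The order of levels was the same in both libraries, from Hbb-y through Hba-a1, Hba-x, Hba-a2, Hbb-bs and Hbb-bt to Hbb-bh1. All these levels are counted molecules, which were not divided by transcript length, and capture may differ between genes.

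**Figure D1:**
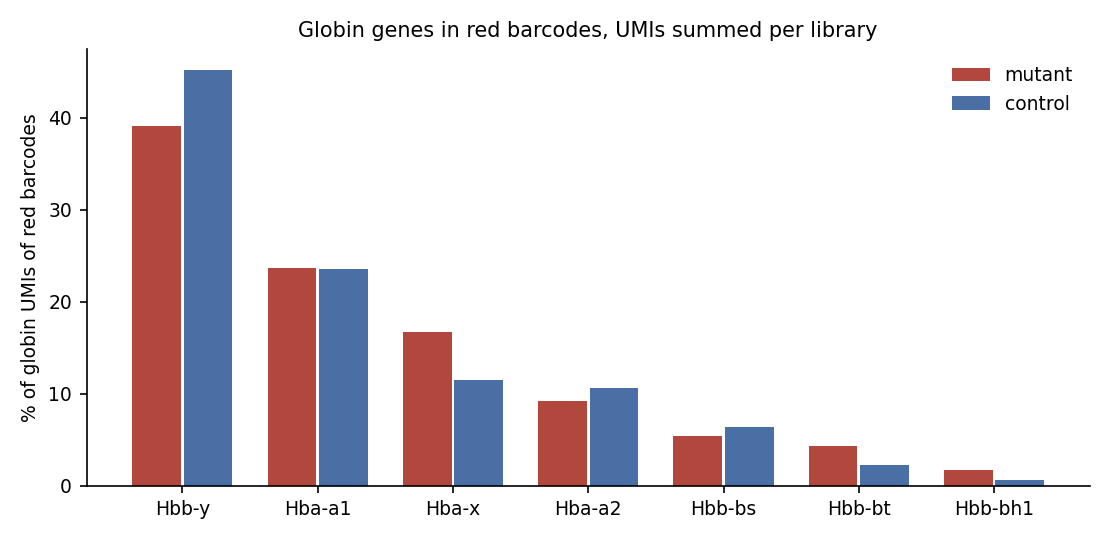
Share of each globin gene in the globin UMIs of red barcodes, summed over 2114 mutant and 1831 control barcodes (bars, mutant left of control, 1 library each, so no error bar). Hbb-y takes the largest share in both libraries, at 39.1% and 45.2%, and Hbb-bh1 the smallest, at 1.73% and 0.602%.

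On the log2 scale, with 10 CPM added to each value, the mutant over control ratio was 1.41 for Hbb-bh1, 0.83 for Hbb-bt, 0.43 for Hba-x, -0.10 for Hba-a1, -0.31 for Hba-a2, -0.32 for Hbb-y and -0.35 for Hbb-bs. Hbb-bh1 was the only one of the 7 past 2-fold. Of all genes tested 3.56% were past 2-fold in either direction: 54 of 1546 genes with at least 10 CPM on average (3.49%) were higher and 1 (0.0647%), the unnamed gene model Gm16867 with 0 mutant and 458 control UMIs, was lower (named after its values were seen). The median ratio over those 1546 genes was 0.33. Globin took a smaller share of the UMIs of red barcodes in the mutant (72.3%) than in the control (78.0%). Over UMIs other than globin the median was 0.12, for a larger set of 3594 genes. The part of the globin share in these medians was not tested. With CPM taken over all red-barcode UMIs other than globin, the ratio was 1.09 for Hbb-bh1, 0.51 for Hbb-bt, 0.10 for Hba-x, -0.43 for Hba-a1, -0.63 for Hba-a2, -0.65 for Hbb-y and -0.68 for Hbb-bs. No member changed sign between these scalings. Across 11 other choices of barcodes and scaling the Hbb-bh1 ratio stayed between 1.09 and 1.46. That of Hbb-bt lay between 0.51 and 1.05, past 2-fold only in embryonic-rich barcodes of under 5000 UMIs.

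The red barcodes formed 2 separate groups by their beta globin. In the mutant 2075 and in the control 1809 barcodes had an embryonic share of at least 50% and are called embryonic-rich, while 30 mutant and 20 control barcodes had at most 10% and are called adult-rich. No mutant barcode lay between 9.67% and 32.4%, and no control barcode between 1.40% and 45.1%, which left 9 mutant and 2 control barcodes below 50%. The alpha genes, which took no part in this grouping, divided at the same place. In embryonic-rich barcodes the median Hba-x share was 34.2% in the mutant and 24.5% in the control, with lowest values of 1.61% and 3.91%. In adult-rich barcodes Hba-x made up 25 of 25907 alpha UMIs in the mutant and 5 of 10384 in the control, and the highest shares were 1.04% and 0.529%. It had no UMI in 18 of 30 and in 17 of 20 adult-rich barcodes.

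**Figure D2:**
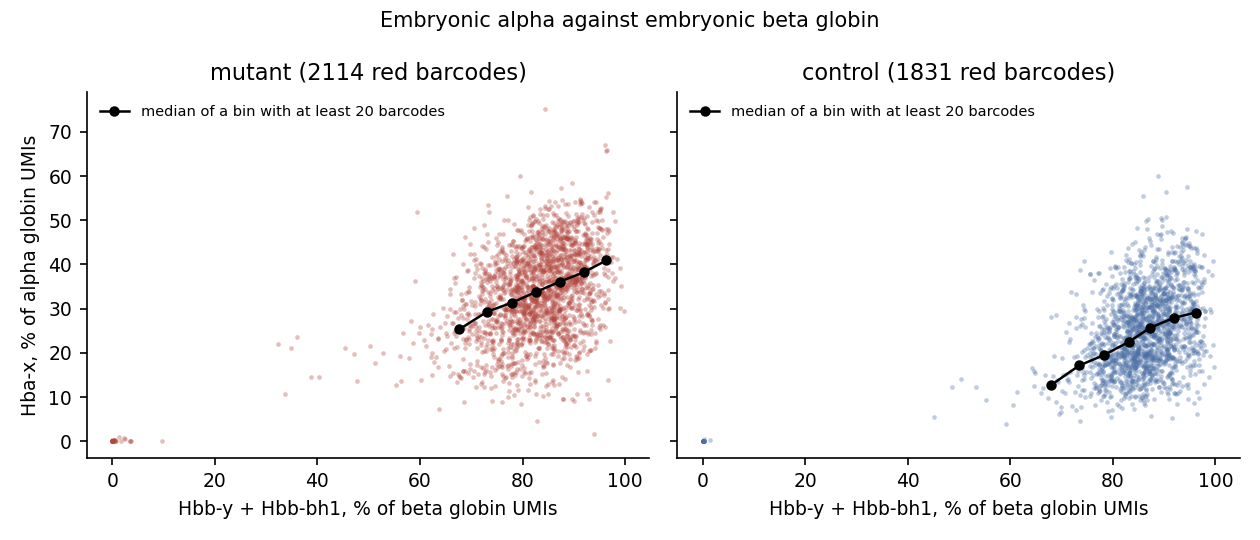
Each point is a red barcode of the mutant (left) or control (right) library, with the embryonic share of beta globin UMIs on the x axis and the Hba-x share of alpha globin UMIs on the y axis. Black points are medians of bins with at least 20 barcodes. The adult-rich barcodes sit at the origin, apart from the embryonic-rich cloud, in which the medians go from 25.3% to 40.9% in the mutant and from 12.6% to 29.1% in the control.

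Adult-rich barcodes were 1.42% of red barcodes in the mutant (95% exact binomial interval 0.959 to 2.02%) and 1.09% in the control (0.668 to 1.68%). The minimum of 1000 UMIs weighed on these shares. Among barcodes of 500 to 999 UMIs with at least 50% globin, 40 of 144 (27.8%, 20.6 to 35.8%) were adult-rich in the mutant and 74 of 298 (24.8%, 20.03 to 30.1%) in the control. At 1000 to 1499 UMIs 19 of 753 (2.52%) and 14 of 895 (1.56%) were, and at 1500 to 2499 UMIs 4 of 914 (0.438%) and 3 of 656 (0.457%). With a minimum of 500 UMIs the shares were 3.10% of 2258 mutant and 4.42% of 2129 control barcodes, so the library with the larger share changed with the minimum. The mutant matrix is filtered and the control matrix is not, so barcodes of 500 to 999 UMIs may not be like sets in the libraries. The part of this filter in the change was not tested. In adult-rich barcodes alpha globin had a median of 41.5% of globin UMIs in the mutant and 43.4% in the control. Hbb-bs had a median of 83.2% of adult beta in mutant and 89.0% in control adult-rich barcodes, with ranges of 68.2 to 90.1% and 85.9 to 93.0% that overlapped.

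Hbb-bh1 and Hbb-y, which are both embryonic, did not stay together in the adult-rich barcodes. In embryonic-rich barcodes there were 0.0439 Hbb-bh1 UMIs per Hbb-y UMI in the mutant and 0.0133 in the control. In adult-rich barcodes Hbb-bh1 had 617 UMIs and Hbb-y 40 of 51918 beta UMIs in the mutant, and 15 and 10 of 15103 in the control. Hbb-bh1 exceeded Hbb-y in 9 of 30 mutant and 1 of 20 control adult-rich barcodes. A pair of mutant barcodes carried 278 and 232 of the 617 UMIs, 3.51% and 3.49% of their beta globin, beside 9 and 1 UMIs of Hbb-y. A shallower mutant barcode had 46 Hbb-bh1 and 1 Hbb-y UMIs and no Hba-x UMI, with Hbb-bh1 at 9.47% of its 486 beta UMIs. The control barcode had 15 Hbb-bh1 UMIs, no Hbb-y UMI and 2 Hba-x UMIs. Among the adult-rich barcodes of 500 to 999 UMIs, which the rule left out, Hbb-bh1 exceeded Hbb-y in 7 of 40 in the mutant and 5 of 74 in the control.

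Within the embryonic-rich barcodes the mix was graded. From the bin with a 60 to 70% embryonic share of beta to the bin of 95 to 100%, the median Hba-x share was 25.3% (97 barcodes), 29.3%, 31.4%, 33.8%, 36.1%, 38.2% and 40.9% (63 barcodes) in the mutant. In the same bins it was 12.6% (21 barcodes), 17.1%, 19.4%, 22.4%, 25.7%, 27.9% and 29.1% (136 barcodes) in the control. The bins used were 60 to 70, 70 to 75 and steps of 5 from there; the bin of 50 to 60% held 13 and 4 barcodes and was left out. Hba-x thus went with the embryonic beta genes in both libraries, and at each beta share the mutant median was 10.3 to 12.7 percentage points higher than the control median. Pearson's r between these shares was 0.345 over 2075 mutant and 0.346 over 1809 control embryonic-rich barcodes. Between the Hbb-bh1 share of beta and the Hba-x share of alpha it was 0.593 and 0.510, and between the Hbb-y share and the Hba-x share 0.0846 and 0.252. Barcodes of a library share its embryos, its preparation and its free RNA, so these are descriptions without a test. The spread was wider than counting gives: the SD of the Hba-x share over embryonic-rich barcodes was 9.72 percentage points in the mutant and 8.96 in the control, against 1.77 and 1.72 from binomial counting.

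The adult beta pair shifted along the same axis. From the 60 to 70% bin to the 95 to 100% bin the median share of Hbb-bs in adult beta was 83.4%, 81.1%, 75.5%, 68.4%, 53.6%, 30.8% and 15.8% in the mutant. In the control it was 90.6%, 92.3%, 90.1%, 88.0%, 83.1%, 75.8% and 50%. Barcodes with the least adult beta thus had the larger share of it from Hbb-bt, and r between the embryonic share and the Hbb-bs share was -0.644 in the mutant and -0.521 in the control. Both shares are built from the Hbb-bs and Hbb-bt counts, so they are not independent, and the part of this in r was not tested. The number of genes seen in each barcode after thinning to 1000 UMIs went up along these bins as well, from medians of 130 to 209 in the mutant and 89 to 152 in the control, and the globin share of UMIs went down, from 72.2% to 58.7% and from 77.6% to 69.7%. The part of globin share and gene number in the shift of the pair was not tested.

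As summed UMIs, the embryonic share of beta was 80.8% in mutant and 84.2% in control red barcodes, a difference of -3.35 percentage points (95% Newcombe interval -3.42 to -3.28). The medians per barcode were 83.5% and 86.2%, with interquartile ranges of 78.1 to 88.2% and 82.2 to 90.6% that overlapped. Hbb-y and Hbb-bh1 differed in opposite directions within it. The median Hbb-y share of beta was 78.8% in the mutant and 85% in the control, and the median Hbb-bh1 share 3.81% and 1.02%. The Hba-x share of alpha was 33.6% in the mutant and 25.2% in the control, a difference of 8.43 points (8.34 to 8.52). Alpha globin made up 49.5% of summed globin UMIs in the mutant and 45.6% in the control, a difference of 3.92 points (3.85 to 3.98). Each of these intervals is narrow because it counts UMIs, and none covers differences between embryos, days or preparations. How many embryos each library pools is not given in the sources used here. By contrast with the whole set, the embryonic share was higher in the mutant by 0.542 points within the barcodes of high Hba-a1 share described below, and the alpha share was lower by 0.0372 points among barcodes with at least 80% globin.

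The alpha share of globin moved with depth. Embryonic-rich barcodes were divided at 5000 UMIs, a limit chosen after the data were seen. The 196 mutant and 174 control barcodes above it held 47.0% and 50.5% of all red-barcode UMIs. Their median alpha share was 40.2% in the mutant and 38.4% in the control, against 60.2% and 53.8% in the 1879 and 1635 shallower barcodes. The interquartile ranges of deep and shallow barcodes did not overlap, at 37.6 to 45.4% against 57.6 to 62.9% in the mutant and 35.3 to 45.0% against 51.7 to 55.9% in the control. Hbb-bs was a median of 38.3% of adult beta in deep against 67.9% in shallow mutant barcodes and 66.0% against 85.4% in the control. The embryonic and Hba-x shares differed less, at medians of 84.3% against 83.7% and 33.7% against 34.2% in the mutant, and 84.8% against 86.5% and 26.3% against 24.3% in the control. Because few deep barcodes hold so many of the UMIs, the alpha share of summed UMIs (49.5% and 45.6%) lies below the median over barcodes (59.6% in the mutant and 53.4% in the control).

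**Figure D3:**
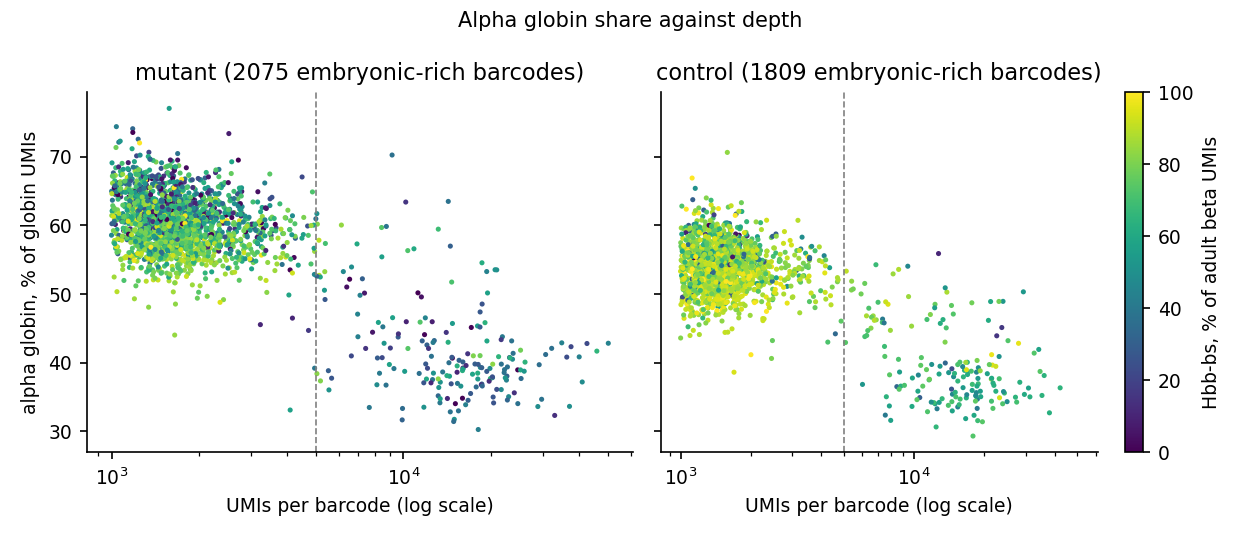
Alpha globin share of globin UMIs against UMIs per barcode (log scale) for embryonic-rich barcodes of the mutant (left) and control (right), coloured by the Hbb-bs share of adult beta UMIs; the dashed line marks 5000 UMIs. Deep barcodes have median alpha shares of 40.2% and 38.4%, against 60.2% and 53.8% in shallow ones.

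Other genes also differed between deep and shallow embryonic-rich barcodes. In each library ratios were taken over UMIs other than globin, and 29.1% of 1984 genes with at least 30 UMIs in each library were past 2-fold higher in deep barcodes in both, and 5.24% past 2-fold lower. Of the listed erythroid genes 11 of 16 were higher past 2-fold in both and none lower. Alas2, the first enzyme of haem synthesis in red cells, was 6219 CPM in deep against 763 CPM in shallow mutant barcodes, and 6743 against 767 CPM in the control. Fech, which inserts iron into the haem ring, was 2285 against 365 CPM in the mutant and 2115 against 331 CPM in the control. Slc4a1, the anion exchanger of the red cell membrane, was 1348 against 275 CPM and 1489 against 271 CPM. Of the listed globin switch genes 6 of 9 were higher past 2-fold in both, among them Klf1 (302 against 104 CPM in the mutant and 165 against 56.3 CPM in the control) and Mbd2, a reader of methylated DNA (250.6 against 43.8 and 387 against 63.0 CPM). Prdx2, an abundant red cell peroxidase, was 14777 against 28514 CPM in the mutant and 15824 against 22601 CPM in the control, short of 2-fold.

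The genes named by rank of their ratio in both libraries as higher in deep barcodes also included Eef1a1, a translation elongation factor (6281 against 569 CPM in the mutant and 5539 against 499 in the control), the protease Ctsb, the kinase Pim1, the nuclear RNA Neat1, Lars2, Mrfap1 and Cpox, an enzyme of haem synthesis. Ptn and Col1a1, which mesenchymal cells express, were on that list too, but 3 barcodes held 86.1% of the mutant's and 100% of the control's deep Ptn UMIs, and 71.2% and 100% of those of Col1a1. Named as lower in deep barcodes were Pttg1, the securin of mitosis (329 against 1885 CPM in the mutant and 211 against 1082 in the control), Ndufa3, Elob, Smdt1, Zfp787, Smim1, Cenpx, Ndufa4, Spcs1 and AI413582.

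The paired genes Hba-a1 and Hba-a2 divided the embryonic-rich barcodes another way. The share of Hba-a1 in adult alpha had modes at 61 to 64% and at 79 to 82% in both libraries, with 31 mutant and 27 control barcodes in the gap from 73 to 76%. At a limit of 76%, set after the data were seen, 963 of 2075 mutant barcodes (46.4%) and 436 of 1809 control barcodes (24.1%) were high, with medians of 81.4% and 81.9%, against 63.4% and 63.9% in the rest. Within the high group the SD was 2.47 points in the mutant and 2.58 in the control, where counting gives 1.82 and 1.76. Within the low group the SD was wider, at 4.25 and 3.78 points, where counting gives 2.29 and 2.26. This split crossed the embryonic axis and depth: medians were 1667 UMIs in high against 1703.5 in low barcodes of the mutant and 1501 against 1524 in the control, and the embryonic share of beta was 83.9% against 83.6% and 85.4% against 86.6%. The Hba-x share was 33.6% in high against 34.7% in low mutant barcodes and 20.5% against 25.7% in the control. Xist, expressed from the inactive X of female cells, had 14 UMIs in high against 50 in low mutant barcodes, and 17 against 7 in the control. Genes on the Y chromosome had 40 UMIs in high against 43 in low mutant barcodes, and 3 against 53 in the control, where the low group held 4049362 UMIs and the high group 1299325. As CPM, Xist was 4.67 in high against 14.2 in low mutant barcodes and 13.1 against 1.73 in the control, and the Y genes 13.4 against 12.2 and 2.31 against 13.1. The sex-linked counts thus differed between the groups, those of Xist in opposite directions in the libraries and those of the Y genes in the control. The part of different embryos, of alleles and of the likeness of the pair's transcripts was not tested. Of 1984 other genes none was past 2-fold higher and 10 (0.504%) were past 2-fold lower in high barcodes in both libraries. For 7 of the 10 (Ptn, Id3, Gpc3, Igfbp5, Mfap4, Col1a1 and Sox4) 3 barcodes held 77.5 to 100% of the UMIs of the low group in each library.

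**Figure D4:**
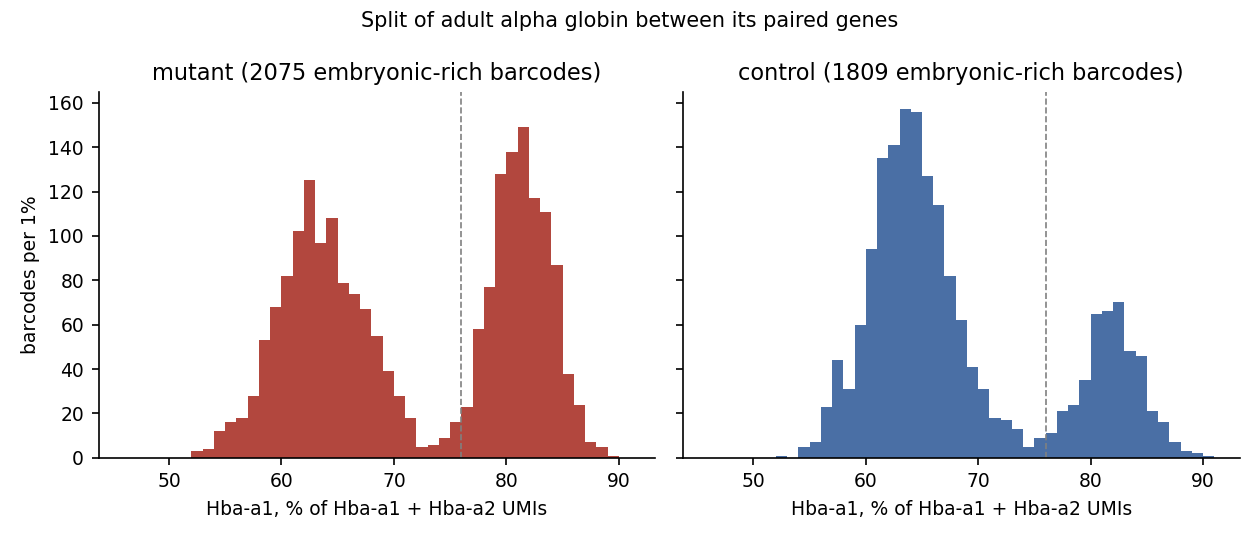
Number of embryonic-rich barcodes by the share of Hba-a1 in Hba-a1 plus Hba-a2 UMIs, in steps of 1 percentage point, in the mutant (left) and control (right); the dashed line marks 76%. Both libraries show separate groups, with 963 of 2075 mutant and 436 of 1809 control barcodes in the high one.

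Regulators of the globin switch were sparsely counted in red barcodes. Of 23 listed genes 14 reached 30 UMIs over both libraries, and 8 of those were higher in CPM in red barcodes than in the rest of each library, as were 12.9% of 3685 genes with as many UMIs. Klf1, a zinc finger activator of adult beta globin, had 341 UMIs in mutant and 114 in control red barcodes. Its partner in erythroid transcription Gata1 had 139 and 63, Tal1 319 and 245, Nfe2 277 and 146, and Zfpm1, a cofactor of Gata1, 131 and 116. Nfix had 197 and 212 UMIs, Mbd2 215 and 214 and Klf3 220 and 131. Bcl11a and Sox6, known repressors of embryonic globin in definitive cells, had 4 and 6 UMIs in mutant red barcodes and 4 and 3 in control ones, short of the 30 UMIs over both libraries asked of the genes named here. Zbtb7a, which represses fetal globin in human cells, had 36 and 15. The median mutant over control log2 ratio of the 14 was 0.19 over UMIs other than globin, and Lmo2, with 69 and 13 UMIs, was the only gene past 2-fold (1.18). In that scaling the background was 2.31% of 3594 genes past 2-fold higher and 0.362% lower, with a median of 0.12. Of 20 listed erythroid genes 19 were matched and 17 reached 30 UMIs, with a median ratio of 0.13. The proliferation genes Mki67 (243 and 52 UMIs, 1.40) and Top2a (62 and 14 UMIs, 1.005) were the members past 2-fold.

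Adult-rich barcodes gave few UMIs outside the globins, 26718 in the mutant and 8891 in the control, against 1804117 and 1177099 in embryonic-rich barcodes. Of 1994 genes with at least 30 UMIs in each library 544 (27.3%) were past 2-fold higher in embryonic-rich barcodes in both libraries and 6.72% past 2-fold lower. Many of these contrasts rest on counts of 0: 517 of the 1994 genes had no UMI in the mutant's adult-rich barcodes and 1065 none in the control's. Against the floor of 3 UMIs per group, Tuba1a (934 UMIs in the mutant and 1237 in the control, 0 in both adult-rich groups) was at least 4.61-fold higher in the mutant's embryonic-rich barcodes and at least 3.11-fold in the control's. Hsd3b6, a steroid dehydrogenase, had 5518 UMIs against 2 in the mutant and 2812 against 0 in the control, at least 7.08-fold higher in the control. Cited4 (at least 5.51-fold and 1.23-fold), Ackr3 (3.12-fold and 1.05-fold), Fam174b (2.25-fold and 1.13-fold), Drap1, Fabp5, Bcor, Ndfip1 and Scp2 were also named by the rule, each with no UMI in either adult-rich group. The last 5 were at least 1.55- to 2.81-fold higher in the mutant, but in the control their level in embryonic-rich barcodes lay under the floor, which leaves the difference unresolved there. For such genes the ratio depends on the 10 CPM added, and 412 of the 544 genes counted as higher had no UMI in the mutant's adult-rich barcodes and 478 none in the control's.

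Genes called higher in adult-rich barcodes have counts above 0 there by the call itself, and these counts can be small. In the control's adult-rich barcodes 1 UMI already stands for 112 CPM. Cd24a, a surface protein of immature blood cells, was 243 CPM in embryonic-rich against 4716 CPM in adult-rich barcodes (438 against 126 UMIs) in the mutant and 176 against 1912 CPM (207 against 17 UMIs) in the control. Tspo2, an erythroid cholesterol-binding protein, was 26.6 against 898 CPM (48 against 24 UMIs) in the mutant and 124 against 1687 CPM (146 against 15 UMIs) in the control. In the adult-rich barcodes of the mutant and control, 3 barcodes held 58.3% and 66.7% of the Tspo2 UMIs, and 59.5% and 64.7% of those of Cd24a. Gmpr, Tfdp2, Rgcc and E2f2, a cell cycle factor, were named with them, as were the mitosis genes Ube2c (264 against 2620 CPM in the mutant and 104 against 3599 in the control), Cenpf and Cdca3. Several of these rest on few barcodes. For Cenpf 3 barcodes held 92.5% of the mutant's 40 adult-rich UMIs, and the control had 3. For Cdca3 they held 81.8% of 22 mutant and all 5 control UMIs, for Rgcc 76.9% of 52 mutant UMIs with all 9 control UMIs in 2 barcodes, and for E2f2 66.7% of 12 mutant UMIs with 3 UMIs in the control. Of 16 listed erythroid genes with enough UMIs none was past 2-fold higher in embryonic-rich barcodes in both libraries and 4 were past 2-fold lower, among them Xpo7 and Mki67. Xpo7 had 21 adult-rich UMIs in the mutant and 7 in the control. Mki67 had 30 in the mutant but 2 in the control, under the floor of 3 UMIs, which leaves it unresolved there. Of 9 listed switch genes 2 were higher in both, Zfpm1 (131 and 116 UMIs) and Nfix (197 and 212 UMIs), each with no UMI in adult-rich barcodes, which the floor of 3 UMIs leaves unresolved, and none lower. Klf1 had 314 UMIs in embryonic-rich and 27 in adult-rich mutant barcodes (174 against 1011 CPM), but 113 and 1 in the control.

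Other globin family genes were low beside the members. Hbq1b, a theta globin, had 239 CPM in mutant and 172 CPM in control red barcodes, Hbq1a had 27.4 and 36.4 CPM and Hbb-bh2 6.47 and 8.54 CPM. Mb, the myoglobin of muscle, had 1 and 2 UMIs in red barcodes but 59.2 and 80.5 CPM outside them. Over 16 points (7 gated classes and the red barcodes of each library), the genes whose level was most like summed globin among 2453 candidates were Car2 (Pearson's r of log2 CPM 0.941), Nudt4 (0.935), Hsd3b6 (0.932), Alas2 (0.923), Prdx2 (0.914), Slc4a1 (0.908), Acp5 (0.908) and Bpgm (0.904). Car2, a carbonic anhydrase, had 1610 and 921 CPM in red barcodes and 39.4 and 43.1 CPM in gated cardiomyocytes. Alas2 and Slc4a1 are among the markers that gate the erythroid class, so their likeness is in part set by that choice. Points of a library also share free RNA, so the likeness of all 8 genes is a description.

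Outside red barcodes, cells were placed in 6 classes by marker genes that include no globin. Together these classes held 3391 mutant and 3243 control cells, in which the 7 genes took 0.984% of UMIs in the mutant (95% exact binomial interval 0.981 to 0.987%) and 1.16% in the control (1.16 to 1.16%). Most of this sat in few cells. The 100 mutant and 112 control cells with at least 1% globin held 97.2% and 98.4% of it, while the median cell had 0.0346% and 0.0184%. In the cells under 1% globin (a limit set after the data were seen) the share was 0.0291% in the mutant and 0.0196% in the control, so the library with more stray globin changed with this limit. As CPM and with all cells kept, summed globin in the mutant was 37651 in epicardial, 13290 in endothelial, 9286 in cardiomyocyte, 7778 in mesenchymal, 4693 in megakaryocyte and 386 in immune cells. In the control it was 25035 in endothelial, 16669 in immune, 15602 in epicardial, 11242 in cardiomyocyte, 8024 in megakaryocyte and 6834 in mesenchymal cells. The order differed between libraries, and single cells weighed on it: the top cell held 36.03% of globin UMIs of mutant epicardial and 45.1% of control endothelial cells. Red barcodes stood at 723249 and 779646 CPM.

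The mix of this stray globin kept the marks of each library. In cells under 1% globin Hba-x was 38.6% of alpha in the mutant and 29.4% in the control, Hbb-bh1 3.04% and 1.03% of beta, and the embryonic share of beta 85.7% and 87.4%. Alpha globin was 41.4% of the globin UMIs of these cells in the mutant and 38.1% in the control. The deep embryonic-rich barcodes held 40.9% and 39.0% alpha in summed UMIs and the shallow ones 59.7% and 53.7%, so in its alpha share the stray mix lay nearer to the deep barcodes. Hbb-bs was 62.1% of stray adult beta in the mutant, nearer to the 70.01% of shallow than to the 42.1% of deep embryonic-rich barcodes, and 73.9% in the control, nearer to the 66.6% of deep than to the 85.7% of shallow ones. Among classes with over 300 globin UMIs in such cells of the mutant, the alpha share was 41.7% in cardiomyocytes, 39.7% in endothelial, 42.2% in epicardial and 40.3% in mesenchymal cells. In the control it was 39.2% in cardiomyocytes and 38.2% in mesenchymal cells, but 22.0% in endothelial cells, where 1 cell held 33.0% of the UMIs.

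**Figure D5:**
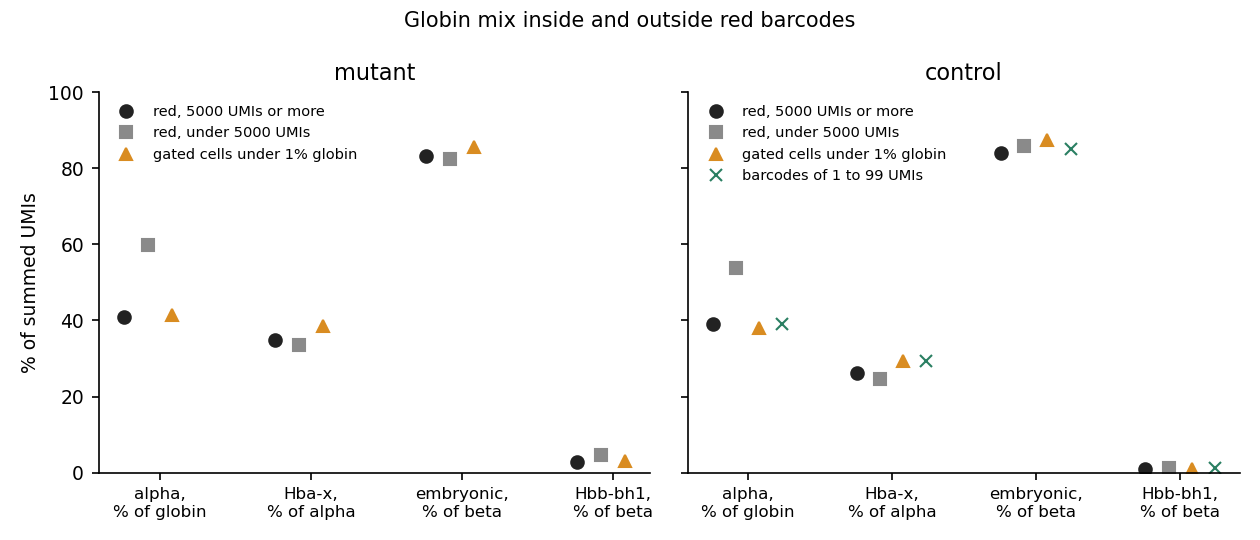
Globin mix of summed UMIs in embryonic-rich red barcodes of at least 5000 UMIs and under 5000 UMIs, in gated cells of 6 classes with under 1% globin, and in control barcodes of 1 to 99 UMIs, for the mutant (left) and control (right). The alpha share of stray globin is 41.4% and 38.1%, beside 40.9% and 39.0% in deep and 59.7% and 53.7% in shallow embryonic-rich barcodes.

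Megakaryocyte-gated cells, the platelet-forming lineage marked by Pf4 and Itga2b, held another mix. In the mutant Hba-a1 had 4190 CPM in the 41 cells, Hba-a2 63.8 CPM and Hbb-y 262 CPM. Hba-a1 took 98.5% of adult alpha UMIs there, against 71.9% in red barcodes. In the control's cells, most of whose globin sat in 1 cell described below, it took 63.5%, against 68.9% in red barcodes. The split of UMIs between Hba-a1 and Hba-a2 is uncertain, as given above. In 6 of 41 mutant cells (14.6%, 5.57 to 29.2%) Hba-a1 had at least 10 UMIs and at least 4 times as many as the other 6 members together, a rule set after the values were seen. The highest had 266, 206, 45, 28, 20 and 10 Hba-a1 UMIs, beside 2, 3, 1, 1, 0 and 0 of Hba-a2 and 2, 2, 1, 1, 0 and 2 of Hbb-y. None of 22 control megakaryocyte-gated cells met that rule, for which 3 counts allow a share of up to 13.6% and the exact binomial interval reaches 15.4%. A pair of control cells had 34 and 24 Hba-a1 UMIs beside 10 and 1 of Hba-a2 and 0 and 1 of Hbb-y, and another, with 387 Hbb-y and 265 Hba-a1 UMIs, held 89.9% of the control cells' globin. Outside this class the rule was met for Hba-a1 by 1 of 1632 mutant and 1 of 2091 control cardiomyocytes. No gated cell met it for Hba-x, Hba-a2, Hbb-bh1, Hbb-bs or Hbb-bt, and 4 mutant cells and 1 control cell did for Hbb-y. The megakaryocyte markers summed to 31199 CPM in mutant and 12968 CPM in control cells of this gate. Cardiomyocyte markers summed to 2261 CPM in the mutant's and 13398 CPM in the control's cells, above the control's megakaryocyte markers, and immune markers to 5714 and 5095 CPM. Of 11 erythroid markers other than globins 9 had no UMI in the mutant's and 8 none in the control's cells, while their sum was 227 and 60.4 CPM, against 18.5 and 13.5 CPM in cardiomyocytes and 1921 and 1322 CPM in red barcodes. The part of other cells' RNA in these globin values was not tested.

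Cells gated as erythroid but with under 50% globin numbered 92 in the mutant and 38 in the control. Their Hba-x level was below that of red barcodes, at 77583 against 120503 CPM (mutant) and 42064 against 89650 CPM (control). The limit of 50% globin that parts these cells from red barcodes largely sets this order, so it is no separate result. The Hba-x share of alpha was larger in these cells. It was 45.4% in the mutant and 27.5% in the control, against 33.6% and 25.2% in red barcodes. Hbb-bh1 was 6.91% and 1.52% of beta, against 3.43% and 1.11%. The whole embryonic share of beta was 83.9% and 75.8%, against 80.8% and 84.2%, so it lay above red barcodes in the mutant and below them in the control. A single cell held 12.48% and 18.6% of the globin UMIs of this class. Cardiomyocyte markers summed to 3589 CPM in these mutant cells and 11957 CPM in the control ones, above the erythroid markers other than globins (2043 and 1583 CPM), while in red barcodes they summed to 220 and 240 CPM. Their part in the globin mix was not tested.

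In the control, 535027 barcodes held 1 to 99 UMIs, which mostly mark droplets without a cell, and together 1560353 UMIs. Globin took 7.401% of these UMIs (95% exact binomial interval 7.36 to 7.44%), which was 2.14% of all globin UMIs of the library. Their mix was 39.1% alpha (38.9 to 39.4%), 29.4% Hba-x of alpha, 85.1% embryonic of beta, 1.21% Hbb-bh1 of beta, 69.9% Hba-a1 of adult alpha and 74.2% Hbb-bs of adult beta. The alpha share was close to the 39.0% of all deep red barcodes, with 53.6% in all shallow ones, while the Hbb-bs share lay between the 66.9% of deep and the 86.1% of shallow red barcodes. It moved with depth within this range, since barcodes of 1 to 9 UMIs had 42.7% alpha and those of 10 to 99 UMIs 34.1%. Between 100 and 499 UMIs, with 731 barcodes, the embryonic share was 53.4%, and between 500 and 999 UMIs, with 557 barcodes, 67.3%. Among the 59 barcodes of 100 to 499 UMIs with at least 50% globin 22 were adult-rich (37.3%, 25.04 to 50.9%).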

How the data were processed

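Cells were freed by TrypLE digestion and their libraries made with the v2 kit for 10X Genomics Chromium, per the labels' protocols. The control's list of 6794880 barcodes, which holds all 7181 of the mutant's, is longer than that kit's list is known to be, so the kit version is uncertain for both. The deposited matrices hold raw UMI counts by gene and barcode, and their file headers name Cell Ranger 3.0.2 as the tool used. Seurat, without a version, stands in the submitters' processing notes. Genome build, annotation, sorting and embryo number: not given in the sources used here. Gene positions come from GENCODE M21 (GRCm38), which holds 99.6% of the 31053 identifiers, and promoter sequences from RefSeq (GRCm38.p6).

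Counts were analysed with Python 3.11.15, numpy 2.4.6, scipy 1.17.1, pandas 2.3.3 and matplotlib 3.10.9. Shares carry 95% exact binomial (Clopper-Pearson) intervals, or Newcombe intervals for differences. UMIs of a barcode are not independent, so intervals and floors of 3 counts cover counting error only. Ratios are log2 of CPM with 10 CPM added. Between genotypes the tested genes averaged at least 10 CPM in red barcodes, taken over all UMIs or over UMIs other than globin, and listed genes had at least 30 UMIs over both libraries. With 1 library per genotype there is no test. Ratio steps were tested on simulated counts. Gated cells had at least 1000 UMIs, 500 genes, at most 20% mitochondrial UMIs and under 50% globin. A class was given when its marker share, scaled to its 99th percentile, reached 0.2 and 2 times the next. Doublets were not called.

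The members and gene lists were chosen with earlier results of these data known. Named along depth and mix are up to 10 genes a direction with at least 30 UMIs in each library and the same sign in both, ranked by the smaller ratio. Left out there are globins, mitochondrial and ribosomal protein genes, unnamed models, Xist and Y-linked genes. Some genes that met these rules are not reported here. Named beside globin are the 8 most alike. The limits at 5000 UMIs, 76% Hba-a1 and 1% globin and the rule for cells with mostly 1 globin were set after the data were seen. Ahsp, Hbb-bh0 and Hbb-bh3 were not analysed here.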

Additional observations from a re-analysis of the deposited data

How the results depend on the processing

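Alternatives were recomputed for the shares in red barcodes, the count of genes past 2-fold, stray globin and low barcodes. The mutant minus control difference in the embryonic share of beta, -3.35 points, was -2.39 with at least 80% globin, -3.16 with at least 30%, -2.90 with at least 2000 UMIs, -3.15 with at least 500 UMIs and -3.50 with at least 500 genes. It was -3.49 as a mean over barcodes, -4.17 after thinning to 1000 UMIs, and -3.45 and -1.03 in embryonic-rich barcodes under and over 5000 UMIs. Where the Hba-a1 share was high it was 0.542, the other way, in summed UMIs, but the median per barcode there was lower in the mutant. The difference in the Hba-x share, 8.43 points, was in the same order 7.50, 8.97, 8.32, 8.54 and 7.07. It was 8.68 after thinning, 8.83 under and 8.70 over 5000 UMIs, 11.4 at a high and 8.03 at a low Hba-a1 share. The difference in the alpha share, 3.92 points, turned to -0.0372 with at least 80% globin. It was 3.85 with at least 30% globin, 3.77 with at least 500 UMIs, 2.94 with at least 500 genes, 5.96 as a mean over barcodes, 5.65 after thinning, 6.02 under and 1.94 over 5000 UMIs, and 3.34 and 4.63 at a high and a low Hba-a1 share. Stray globin, -0.174 points, was -0.183 with a stricter gate, but 0.191 in cells under 10% globin, 0.0162 as a median over cells and 0.0095 in cells under 1%. Globin in low barcodes was 7.46% at 1 to 49 and 6.26% at 10 to 99 UMIs. The 55 genes past 2-fold became 27 with at least 80% globin, 125 with at least 30%, 83 with at least 2000 UMIs, 97 with at least 500 genes, 139 with 1 CPM added and 96 over UMIs other than globin. The cause of these shifts was not tested. The 77 alternative values for the 7 genes' mutant over control ratios kept their direction, and 76 kept their side of 2-fold. The exception was Hbb-bt, at 1.05 on the log2 scale in embryonic-rich barcodes under 5000 UMIs against 0.83 in all. The count of 678 genes past 2-fold along the mix was 677 with a single split at 30% and 706 with 1 CPM added.

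No paired analysis was possible because each genotype has 1 library. Differences between embryos, days and preparations cannot be told apart from the genotype. The mutant matrix holds no barcode under 500 UMIs, so its low barcodes were not analysed here. The adult-rich barcodes gave 26718 and 8891 UMIs outside the globins in the mutant and control, which leaves genes under about 112 and 337 CPM there unresolved at 3 counts.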

Other observations

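Outside the globins, the most counted RNAs of red barcodes were shared by both libraries. Fth1, the heavy chain of the iron store ferritin, took 11.3% of UMIs other than globin in mutant and 12.9% in control red barcodes, and Ftl1, its light chain, 1.98% and 2.48%. Gpx1 and Prdx2, which remove peroxides, took 4.92% and 2.38% in the mutant and 4.58% and 2.03% in the control. The nuclear RNA Malat1 took 6.05% in mutant and 7.73% in control red barcodes. Nudt4, named above among the genes whose level was most like globin, took 0.765% and 1.21%.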
